A study of Mus musculus with 2 samples.

Results

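The insulin-like growth factor genes measured here are 9 in number: the ligands Igf1 and Igf2, the receptor Igf1r, and the binding proteins Igfbp2, Igfbp3, Igfbp4, Igfbp5, Igfbp6 and Igfbp7. They were taken by gene name from the non-control probes of the scanner files, which held 15 probes for them among 39429. All 15 probes and all 9 genes passed the filter on dim signals, among 19801 genes tested. Igf1 was read by 5 probes, Igfbp2 and Igfbp3 by 2 each, and the other 6 genes by 1 each.

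RNA came from ureters dissected from NMRI mouse embryos at E14.5. Gata6cKO embryos had the genotype Tbx18(cre/+);Gata6(fl/fl), in which cre sits in the Tbx18 locus and so acts in cells that express or once expressed Tbx18, chiefly the mesenchyme around the ureteric epithelium. Control embryos had the genotype Gata6(fl/?), with the second Gata6 copy unstated and no cre in the label. Loss of Gata6, presence of cre and the altered Tbx18 copy therefore cannot be told apart. Each of 2 two-colour arrays paired 1 Gata6cKO RNA with 1 control RNA. Both RNAs were male and Gata6cKO carried Cy5 on replicate 1, and both were female and Gata6cKO carried Cy3 on replicate 2. Sex, dye orientation and pair of RNAs thus change together between the arrays and cannot be told apart. Whether an RNA was 1 embryo or a pool is not given, so p-values cover only these samples. They rest mostly on a variance shared over all genes (11.9 prior degrees of freedom). The spread between the 2 arrays adds only 1 residual degree of freedom, so a small p-value is no measure of how closely the arrays match. The study asked which ureter transcripts change when Gata6, a zinc finger transcription factor, is deleted.

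IGF1 and IGF2 are small secreted peptides that bind the tyrosine kinase receptor IGF1R and through it switch on the PI3K-AKT and ERK cascades. IGF2 is the main growth factor of this family in the fetus, and its gene is expressed from the paternal copy. The binding proteins IGFBP2 to IGFBP6 hold both ligands outside the cell with high affinity, which can withhold them from the receptor or bring them to it. IGFBP6 prefers IGF2, and IGFBP7 binds the ligands only weakly.

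Across the arrays the median spot signal lay between 224 and 442 over median local backgrounds between 23 and 85, and 67.2% to 68.5% of the spots were well above background. The number of arrays limits the precision. The Gata6 probe read higher in Gata6cKO RNA (log2 ratio 0.65 ± 0.12, moderated SE, n = 2 arrays). Whether it lies in the floxed part was not settled, so it checks nothing about the labels. Listed markers of the tissue were measured: all 24 genes of the urothelium list and 16 of 18 of the smooth muscle list passed the filter. The exceptions were Lmod1 and Ckm, and Ckm also stands in the skeletal muscle list, so it is not particular to smooth muscle.

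Of the 9 genes, Igfbp2 and Igfbp6 rose in Gata6cKO ureters, none fell and 7 did not pass. The test was limma on the log2 ratio of Gata6cKO over control, with p-values adjusted by Benjamini-Hochberg over all 19801 genes and a threshold of 0.05. By this rule 4.55% of all genes passed, 2.2% higher and 2.35% lower. As the 9 genes were chosen with earlier results of these data known, these shares stand beside them as a description. The median log2 ratio was -0.01 for the 9 genes and 0.00 for all genes tested, and the median size regardless of sign was 0.12 for the 9 genes and 0.07 for all genes. Levels below are signals on the linear scale with an offset of 50, loess-normalised and with average intensities quantile-normalised between the arrays. They are comparable only within a gene because each probe has its own brightness. In bulk tissue, fewer cells of a type and less RNA per cell cannot be told apart.

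Igfbp2, which binds both ligands, had signals of 17301 (male) and 16537 (female) in Gata6cKO ureters, against 7361 (male) and 7689 (female) in control ureters. Both Gata6cKO RNAs were above both control RNAs, and the RNAs of 1 genotype lay close together. The log2 ratio was 1.17 ± 0.11 (moderated SE, n = 2 arrays; limma adjusted p = 3.60e-05), a 2.25-fold higher level, with 1.23 (male array) and 1.10 (female array). The second probe, which starts 5′ of the first and is separated from it by 76 bases, read 14546 and 14264 in Gata6cKO against 5941 and 6038 in control ureters. Its log2 ratio was 1.27, so that separate oligonucleotides of the same transcript gave a like difference.

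Igfbp6, the binding protein with a preference for IGF2, had signals of 7723 (male) and 5995 (female) in Gata6cKO ureters, against 4190 (male) and 2745 (female) in control ureters. The groups did not overlap, although the male RNAs were higher than the female RNAs within each genotype. The log2 ratio was 1.00 ± 0.12 (moderated SE, n = 2 arrays; limma adjusted p = 1.70e-04), a 2.01-fold higher level, with 0.88 (male array) and 1.13 (female array). The spread of the 4 spots of the probe was 0.03 and 0.04 (SD of the log2 ratio). Igfbp2 and Igfbp6 passed under all 7 other settings that have a test, at log2 ratios of 1.12 to 1.22 for Igfbp2 and 0.97 to 1.03 for Igfbp6. These settings reuse the same 2 arrays, and several of them leave the ratio unchanged by construction. The narrow ranges are therefore not independent support. The largest adjusted p, 0.0496 for Igfbp6 by limma, came from the fit of separate channels.

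**Figure D1:**
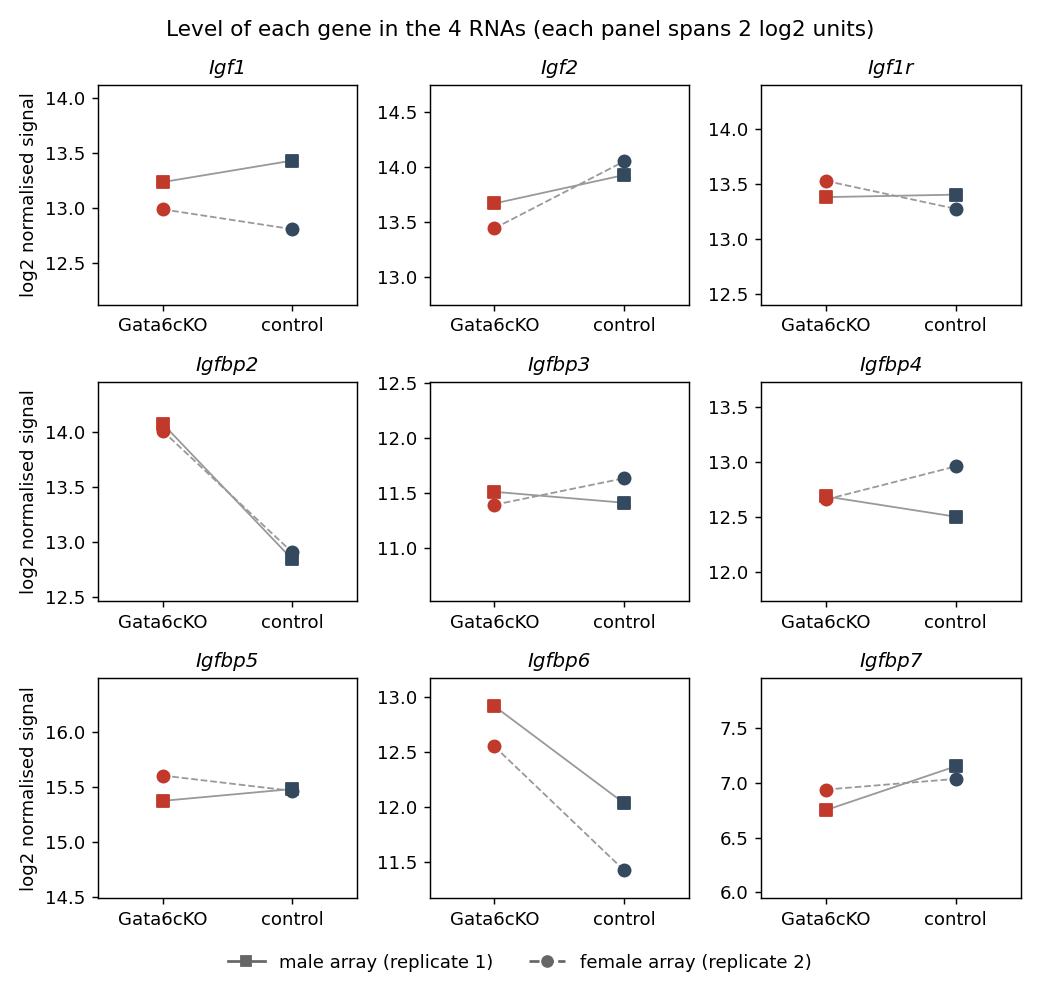
Log2 normalised signal of each gene in the 4 RNAs, Gata6cKO on the left and control on the right of each panel, with squares and solid lines for the male array and circles and dashed lines for the female array. Igfbp2 and Igfbp6 are higher in Gata6cKO on both lines, at log2 ratios of 1.17 and 1.00, and the lines of Igf1 and Igfbp4 slope in opposite ways.

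The oligonucleotides behind these rises are shown by their first 30 of 60 bases, so that the measured stretch can be located. They are given 5′ to 3′ as in the scanner files, with coordinates on mm9 and the strand read from the order of the listed coordinates. They belong to the RefSeq transcripts of the gene per the file, and their place in the exons was not determined here.
Igfbp2, brighter probe, chr1:72898813-72898872, plus strand: aggagttcccagttttgacacatgtattta
Igfbp2, second probe, chr1:72898677-72898736, plus strand: catctcttctacaacgagcagcaggagact
Igfbp6, chr15:101979852-101979911, plus strand: ctgtcacccttgggcctttacacagctagt

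Because the deleted gene encodes a GATA factor and 2 members rose together, the RefSeq promoter windows of the 9 genes (GRCm38.p6, 250 bases before to 50 after each start, 13 windows) were searched on both strands for the GATA motif, the letters GATA preceded by A or T and followed by A or G. Matches occurred in 2 of the 13 windows, those of Igfbp6 and Igf1, and 29.8% of the 32851 windows in the table hold at least 1. Capitals mark the matches below. In Igfbp6 they begin at -68 and -36 from the start site, both as the reverse complement. In Igf1 they begin at -14 and -10 and overlap each other. Neither window of Igfbp2 holds a match, and 1 of its 2 windows is printed.
Igfbp2, chr1:72824230-72824529, plus strand: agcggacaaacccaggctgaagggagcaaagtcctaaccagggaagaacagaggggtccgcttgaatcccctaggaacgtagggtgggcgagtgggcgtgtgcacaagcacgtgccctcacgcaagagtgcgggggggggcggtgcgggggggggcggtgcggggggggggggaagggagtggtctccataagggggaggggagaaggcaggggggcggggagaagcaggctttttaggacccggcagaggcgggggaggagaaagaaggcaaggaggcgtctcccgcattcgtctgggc
Igfbp6, chr15:102143936-102144235, plus strand: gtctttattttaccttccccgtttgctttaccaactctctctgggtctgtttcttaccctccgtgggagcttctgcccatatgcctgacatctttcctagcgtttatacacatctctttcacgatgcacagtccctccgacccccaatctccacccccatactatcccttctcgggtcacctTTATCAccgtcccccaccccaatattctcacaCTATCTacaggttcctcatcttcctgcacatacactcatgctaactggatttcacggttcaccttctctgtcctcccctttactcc
Igf1, chr10:87860861-87861160, plus strand: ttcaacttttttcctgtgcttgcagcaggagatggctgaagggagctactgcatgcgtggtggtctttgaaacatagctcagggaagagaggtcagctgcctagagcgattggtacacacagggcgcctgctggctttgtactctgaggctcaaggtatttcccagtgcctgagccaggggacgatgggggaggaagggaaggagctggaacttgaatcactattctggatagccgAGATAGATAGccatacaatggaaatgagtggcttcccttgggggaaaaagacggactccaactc
A match is a description of letters, not a binding site. Of the genes that rose, Igfbp6 holds matches in its window and Igfbp2 holds none in either of its windows, while Igf1, which did not pass, also holds matches.

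Among the ligands, Igf2 had signals of 13020 (male) and 11131 (female) in Gata6cKO ureters, against 15576 (male) and 16974 (female) in control ureters. Both Gata6cKO RNAs were below both control RNAs, and the log2 ratio was -0.43 ± 0.12 (moderated SE, n = 2 arrays), with -0.26 (male array) and -0.61 (female array). It did not pass (limma adjusted p = 0.0636). It passed with an intensity trend in the prior (limma adjusted p = 0.0354) and with the deposited series values (limma adjusted p = 0.0390), at log2 ratios of -0.43 and -0.44, and under none of the other 5 settings with a test. Adjusted p over these 7 settings ran from 0.0354 upward to 1.00 with median centring.

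Igf1 had signals of 9641 (male) and 8120 (female) in Gata6cKO ureters, against 11041 (male) and 7165 (female) in control ureters, and the groups overlapped. Its log2 ratio was -0.01, with a 95% moderated interval of -0.27 to 0.26. The array values of its brightest probe were -0.20 (male) and 0.18 (female), and 4 of its 5 probes were below 0 on the male array while all 5 were above 0 on the female array. These probes are not independent readings of the RNA, since all share the same samples and 1 pair of neighbouring probes shares 40 bases. The fifth probe stood at 0.02 (male array) and 0.09 (female array). Igf1r, the receptor through which both ligands signal, had signals of 10643 and 11786 in Gata6cKO ureters, against 10810 and 9886 in control ureters. Its log2 ratio was 0.12, with an interval of -0.14 to 0.37, and it did not pass.

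**Figure D2:**
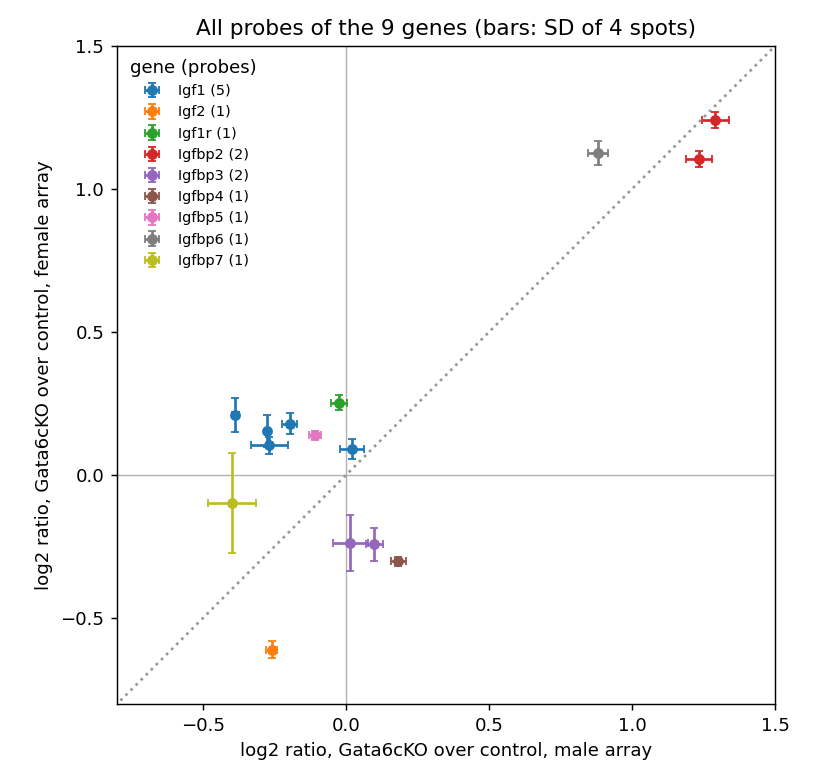
Log2 ratio of Gata6cKO over control for each of the 15 probes on the male array (horizontal) and the female array (vertical), with bars for the SD of 4 spots and a dotted line where both arrays are equal. The 2 Igfbp2 probes and the Igfbp6 probe lie at the upper right, between 0.88 and 1.29 on both arrays, and 4 of the 5 Igf1 probes lie left of 0 and above it.

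The other 4 binding proteins did not pass. Igfbp5, which binds extracellular matrix as well as the ligands, had signals of 42482 and 49834 in Gata6cKO ureters, against 45777 and 45247 in control ureters. Its log2 ratio was 0.02 (95% moderated interval -0.23 to 0.26), with array values on both sides of 0, and median centring turned it to -0.05. Igfbp4, the binding protein that the protease PAPP-A cleaves, had signals of 6596 and 6472 in Gata6cKO ureters, against 5806 and 7971 in control ureters. The control values enclosed the Gata6cKO values, and the log2 ratio was -0.06 (interval -0.34 to 0.22). Igfbp3, the main carrier of IGFs in adult blood, had signals of 2919 and 2690 in Gata6cKO ureters, against 2725 and 3179 in control ureters. Its log2 ratio was -0.07 (interval -0.33 to 0.19), and its second probe, with signals of 144 and 134 in Gata6cKO ureters against 143 and 158 in control ureters, gave -0.11.

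Igfbp7, the weak IGF binder, was read by a dim probe. Its signals were 108 (male) and 122 (female) in Gata6cKO ureters, against 142 (male) and 131 (female) in control ureters. The offset of 50 was added before normalisation and is included in each. In Gata6cKO RNA 1 of 4 spots (male) and 3 of 4 (female) were well above background, and in control RNA all 4 were on both arrays, so that this gene passed the filter through control RNA alone. The log2 ratio was -0.25 ± 0.12 (moderated SE, n = 2 arrays), which limma did not call (adjusted p = 0.472). With Agilent's processed signals it was -0.60 (limma adjusted p = 0.0339) and with the deposited series values -0.56 (limma adjusted p = 0.00998), so its size and its call changed with the source of the values. Adjusted p over its 7 other settings ran from 0.00998 upward to 1.00.

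In all, the levels of 4 of the 9 genes did not overlap between genotypes (Igfbp2, Igfbp6, Igf2 and Igfbp7), against 33.5% of all genes tested. Igfbp7 entered through control RNA, where it was higher, and of the 8 genes that passed the filter in both genotypes 3 did not overlap. The ratios of 5 of the 9 had opposite signs on the arrays (Igf1, Igf1r, Igfbp3, Igfbp4 and Igfbp5), against 51.2% of all genes. The 95% moderated intervals of these 5 genes all lay within -0.34 and 0.37. They rest mostly on the variance shared over all genes and hardly on the spread between the arrays. Igfbp4, for example, stood at 0.18 (male array) and -0.30 (female array). The intervals therefore neither bound the difference of each gene nor show that it is absent.

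**Figure D3:**
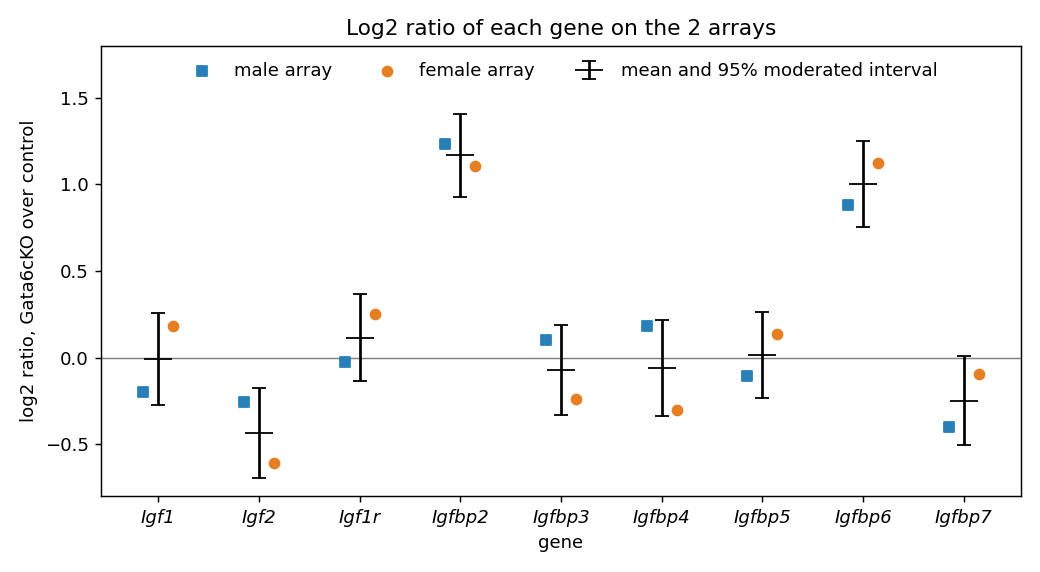
Log2 ratio of Gata6cKO over control for each gene, with squares for the male array, circles for the female array, and a dash and bars for the mean and its 95% moderated interval from limma. The intervals of Igfbp2 (0.93 to 1.41) and Igfbp6 (0.76 to 1.25) lie above 0, those of Igf1, Igf1r, Igfbp3, Igfbp4, Igfbp5 and Igfbp7 include 0, and that of Igf2 (-0.69 to -0.17) lies below 0 although Igf2 did not pass after adjustment.

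The other genes of the pathway were read from 4 lists that together hold 76 genes, of which 68 were measured. Of these, 2 rose, 3 fell and 63 did not pass, a share of 7.35% called beside 4.55% of all genes, with a median log2 ratio of -0.01. Because the lists were chosen with earlier results of these data known, these shares are only described. In the list of receptors and signalling proteins, Insrr and Pik3r1 rose and 29 of 31 did not pass, with a list median of -0.01. Insrr, a receptor related to the insulin receptor, had a log2 ratio of 0.81 ± 0.11 (1.75-fold, 0.73 (male array) and 0.89 (female array)). Pik3r1, a regulatory subunit of PI3 kinase, had one of 0.62 ± 0.11 (1.54-fold, 0.71 and 0.53). With median centring both calls were lost at log2 ratios of 0.79 for Insrr (limma adjusted p = 0.108) and 0.59 for Pik3r1 (limma adjusted p = 0.649). The receptor that clears IGF2, Igf2r, stood at -0.15 ± 0.12, the insulin receptor Insr at -0.09 ± 0.11 and the adaptor Grb14, which binds the insulin receptor, at 0.36 ± 0.12, and none of these passed.

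None of the 13 measured genes in the list named IGF availability regulators passed in limma. Of the 17 listed, 4 did not pass the filter and were not tested (Igfals, Adam28, Mmp7 and Plg). The list median was 0.04. The closest were the proteases Pappa at -0.36 ± 0.11, Pappa2, which cleaves IGFBP5, at 0.32 ± 0.12 and Htra1 at 0.28 ± 0.11. The binding protein Igfbp1 was dim and stood at 0.26 ± 0.11, and limma called it with Agilent's processed signals (0.47, adjusted p = 0.0437) and with the deposited series values (0.47, adjusted p = 0.0230). Among 10 measured proteins that carry an IGFBP-like domain, Ccn3, a secreted matrix-associated protein, fell by 0.50 ± 0.11 and Crim1, a membrane protein that binds BMPs, by 0.45 ± 0.11 on the log2 scale, and 8 did not pass. Ccn1, a matrix protein, had a log2 ratio of 0.38 ± 0.12. Among 17 measured imprinted growth genes, Peg10, an imprinted gene derived from a retrotransposon, fell by 0.48 ± 0.11 on the log2 scale and 16 did not pass. The Peg10 probe was dim, with log2 levels of 7.65 (male) and 7.42 (female) in Gata6cKO ureters. In control ureters they were 8.01 (male) and 8.01 (female). Ccn3 and Crim1 passed under 4 of 7 other settings and Peg10 under 3. Plagl1, a zinc finger factor, was at 0.38 ± 0.11, the membrane transporter gene Slc22a18 at -0.36 ± 0.12 and H19, the noncoding RNA beside Igf2, at -0.08 ± 0.11.

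**Figure D4:**
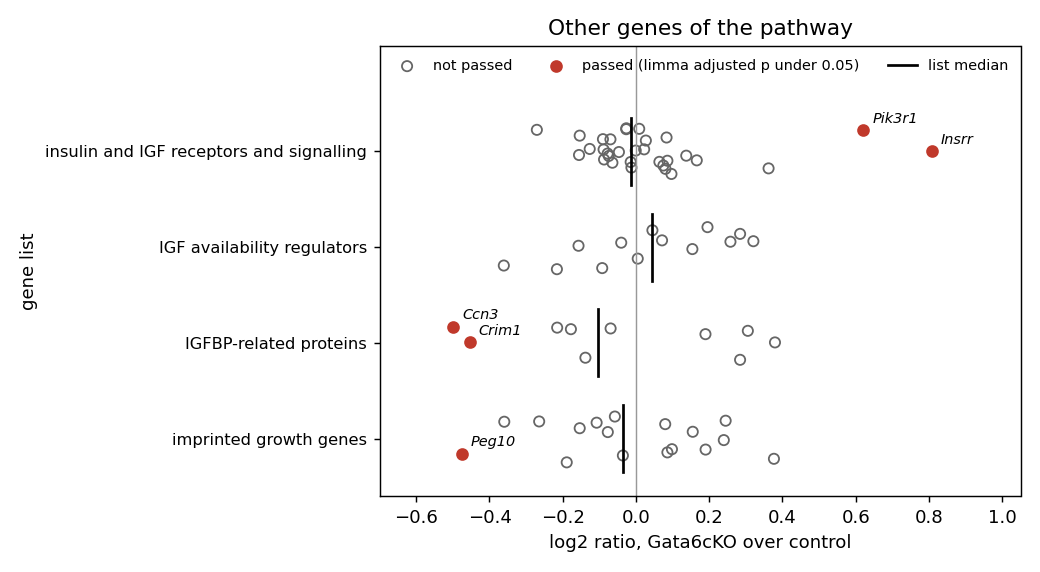
Log2 ratio of Gata6cKO over control of each measured gene in the 4 pathway lists (rows, scattered within a row for display), filled where limma's adjusted p was under 0.05, with a bar at the list median. The 5 filled points are Insrr and Pik3r1 above 0 and Ccn3, Crim1 and Peg10 below 0, and the list medians lie between -0.10 and 0.04.

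Markers of several cell types moved with genotype on the same arrays, and their part in the rise of Igfbp2 and Igfbp6 was not tested. Of the neurons and glia list, 13 of 19 measured members rose and none fell, with Nefm at 1.83 ± 0.11 and a list median of 1.10. Its summed signal was 136311 and 143506 in Gata6cKO ureters, against 119714 and 111907 in control ureters. Skeletal muscle markers (6 of 14 rose) summed to 41931 and 31369 in Gata6cKO ureters, against 34935 and 31381 in control ureters, without Ckm, and nephron and kidney stroma markers (4 of 13 rose) to 129024 and 118363 against 101757 and 119642. Urothelium markers (14 of 24 fell) summed to 243873 and 223963 in Gata6cKO ureters, against 331621 and 305708 in control ureters. Adventitial fibroblast markers (6 of 13 fell, 2 rose) summed to 469068 and 475050 in Gata6cKO ureters, against 636440 and 578164 in control ureters. In the mesothelium list 3 of 7 fell, Msln among them (-1.49 ± 0.15), and Wt1 rose (1.22 ± 0.11). The sums were 43944 and 40955 in Gata6cKO ureters, against 58315 and 52278 in control ureters, and Lrrn4, Muc16 and Bnc1 were not tested. These lists share genes: Upk3b and Krt19, which fell, are also in the urothelium list, and Wt1 is also in the nephron and kidney stroma list. Of smooth muscle markers 4 of 16 fell and 2 rose, of red cell markers 5 of 12 fell, of endothelium markers 1 of 16 rose and 1 fell, and of pericyte markers 1 of 7 rose. No macrophage marker of 12 passed in limma. Beside these counts, 2.2% of all genes tested rose and 2.35% fell. The lists were chosen with earlier results of these data known, so the comparison is a description only.

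Genes with clone or placeholder names were left out of a search for those nearest to Igfbp2 in their pair of array ratios. The nearest, over 2 arrays, were Aldh1a2, which makes retinoic acid (1.20 (male array) and 1.17 (female array), distance 0.07), the immediate early gene Fos (1.35 and 1.10, distance 0.12) and the homeobox gene Hoxd13 (1.37 and 1.12, distance 0.14). Distance is Euclidean on the log2 ratios, and over 2 arrays it describes little more than the size of the change.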

How the data were processed

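Total RNA (150 ng input per the labels) was hybridised as Cy3- or Cy5-labelled cRNA. Per the file headers, the deposited scanner files give the raw intensity of each spot and its local background, and processed intensities with their log10 ratio of Cy5 over Cy3, which the authors made with Agilent Feature Extraction 10.7.3.1 after detrending and lowess dye correction. The deposited series values are a score that behaves as a linear fold with a sign, positive where Gata6cKO is above control: none lies between -1 and 1, both medians are 1, and as log2 they had r = 0.985 and 0.980 with processed log2 ratios across 26200 probes. How that score was made is not given in the sources used here. There were 0 unused per-sample columns.

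From the raw intensities, background was corrected with normexp (offset 50) and ratios normalised by loess in limma 3.58.1 (R 4.3.3, data.table (1.17.8), statmod 1.5.0), with control and outlier spots at weight 0. For the levels, average intensities were then quantile-normalised between the arrays, which leaves the ratios unchanged. Probes were kept with at least 3 of 4 spots well above background in 1 genotype on both arrays (26200 probes), and the brightest stood for each gene. No member spot was saturated. Symbols follow a RefSeq table of GRCm38.p6, used for names and gene order (28328 probes matched by accession, 1602 symbols updated, 31971 probes with a listed symbol). Ratios were fitted with lmFit and eBayes, each array its own pair, with 1 residual and 11.9 prior degrees of freedom. With 2 arrays an exact sign-flip test cannot go below p = 0.5. The fit was tested on simulated data. Members and lists were chosen with earlier results of these data known. Named were the 9 members, Igf2r, H19, Igfbp1, Insr, and the pathway genes that passed or, in lists with fewer than 3, those with the smallest p. Also named were up to 2 genes of a cell type list, Msln, the called genes that cell type lists share, and 3 genes nearest to the member with the smallest p. Clone and placeholder names were left out of the nearest genes.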

Additional observations from a re-analysis of the deposited data

Results flagged for a closer look

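In 5 of the 9 genes, none of which passed the test, the ratios of the male and the female array had opposite signs, as did those of 51.2% of all genes tested. For Igf1, the Gata6cKO over control log2 ratio was -0.20 (male array) and 0.18 (female array), and for Igf1r it was -0.023 and 0.25. Among the binding proteins it was 0.10 and -0.24 for Igfbp3, 0.18 and -0.30 for Igfbp4, and -0.11 and 0.14 for Igfbp5. The difference between the arrays was not tested, since each sex has 1 array, and sex, dye orientation and pair of RNAs cannot be told apart.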

How the results depend on the processing

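Igfbp2 and Igfbp6 passed under all 7 alternatives with a test: Agilent's processed signals, median centring, dim probes left unfiltered, the mean of a gene's kept probes, an intensity trend in the prior, the deposited series values, and separate channels. All 7 reuse the same 2 arrays. Leaving dim probes in, the trend and separate channels keep the ratios of both genes unchanged. The mean of kept probes also keeps that of Igfbp6, which has 1 probe. The count of members past the threshold was 2 and became 4 with the deposited series values, which added Igf2 and Igfbp7 as lower, Igfbp7 being a gene that passed the filter through control RNA alone. It was 3 with Agilent's processed signals, which added Igfbp7, and 3 with the intensity trend, which added Igf2. Of all genes, 901 passed, against 1191 with the processed signals, 1176 with the trend and 190 after median centring. The count was 477 where dim probes stayed in, 1467 from the deposited series values and 542 from separate channels. The fit of separate channels has no replicate block, and the pairing of the RNAs on an array enters it through an intraspot correlation, estimated at -0.044. That fit lost no member. Of the pathway genes 5 passed, against 0 in limma with median centring (3 at an unadjusted p under 0.05), 2 where dim probes stayed in and 2 from separate channels. Signs turned for Igfbp5 with median centring (-0.050) and for Insr with the mean of its probes (0.092), and neither passed. Peg10 was at -0.29 as the mean of its probes, and lost its call. The causes of these changes were not tested, except that the filter changes how many genes are tested. Without 1 array there is no residual degree of freedom, so each array's value stands without a test and no count can be given: Igfbp2 ranged from 1.10 to 1.23, Igfbp6 from 0.88 to 1.13 and Igf2 from -0.61 to -0.26. Signal over background limits Igfbp7, Igfbp1, Peg10 and the second Igfbp3 probe.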

Other observations

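Some of these genes are neighbours in the genome, by the gene order of RefSeq GRCm38.p6. Igfbp2 and Igfbp5 lie next to each other on chromosome 1 with 0 genes between them, and had log2 ratios of 1.17 and 0.02. Their probes are 5957 bases apart on mm9. Igfbp1 and Igfbp3 are likewise adjacent on chromosome 11, at 0.26 and -0.07, and neither passed. H19 and Igf2, on chromosome 7 with no protein-coding gene between them, stood at -0.08 and -0.43, and neither passed. Whether the ratios within a pair differ was not tested.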
